A study of Homo sapiens with 5 samples.

Results

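DNAJ genes encode co-chaperones of the HSP70 system, and 36 of the 42 protein-coding DNAJA, DNAJB and DNAJC genes carried a PHF8 peak at a promoter in every replicate of a chromatin immunoprecipitation (ChIP) experiment in SKMEL-147 cells. The members were all protein-coding genes of GENCODE release 44, lifted to GRCh37, whose symbol is DNAJA, DNAJB or DNAJC followed by a number only. They comprised 4 DNAJA, 12 DNAJB and 26 DNAJC genes of 20162 protein-coding genes in all. SKMEL-147 is an established human melanoma cell line, and chromatin bound by PHF8, an enzyme that takes methyl groups off histones, was pulled down with an anti-PHF8 antibody. The series holds 3 ChIP libraries, here called A, B1 and B2 as in their labels, and 2 input libraries, which entered only through the enrichment that the peak caller computed against input. The labels name no guide RNA or other treatment for these 5 libraries, although the design text of the series speaks of a PHF8 loss-of-function model. Nothing says whether the replicates were separate cultures, so the spread between them may be technical. B1 and B2 share a letter, and the inputs are labelled A and B, so B1 and B2 may be closer to each other than either is to A, and the 3 replicates need not be equally independent. Each standard deviation (SD) below covers these 3 libraries.

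A J-domain protein delivers unfolded clients to an HSP70 protein and triggers its ATP hydrolysis, which locks the client in place. A nucleotide exchange factor then removes ADP and lets the client go. The A and B classes share the general architecture of the bacterial DnaJ protein to different degrees, whereas members of the C class have only the J domain in common and send HSP70 to particular places such as the endoplasmic reticulum (ER), the mitochondrial import channel, the ribosome or clathrin-coated vesicles. PHF8 binds trimethylated lysine 4 of histone H3, a mark of active promoters, through its plant homeodomain finger, and such promoters are mostly rich in CpG dinucleotides.

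Promoter sequences of 5 members are given first, to let CpG content be read beside PHF8 binding. Each is the GRCh37 sequence of the 100 bases before the start of the main transcript, read 5′ to 3′ on the gene's own strand, and capitals mark CpG dinucleotides. DNAJC25, the member with the highest enrichment, lies at chr9:114393514-114393613 on the plus strand and has 11 CpGs in this stretch, part of which is also an exon of the pseudogene LRRC37A5P. DNAJA1, a general cytosolic co-chaperone near the top of the ranking, lies at chr9:33025171-33025270 on the plus strand and has 17. DNAJC5, bound in every replicate but near the bottom, lies at chr20:62526379-62526478 on the plus strand and has 18. DNAJB13 at chr11:73661971-73662070 on the plus strand and DNAJC12 at chr10:69597947-69598046 on the minus strand had no promoter peak, and each has 1 CpG. The unbound members shown are among those with few CpGs. In the same stretch the unbound DNAJA4 has 13 CpGs and the bound DNAJB4 has 2, so the count does not divide all bound from all unbound members.
DNAJC25: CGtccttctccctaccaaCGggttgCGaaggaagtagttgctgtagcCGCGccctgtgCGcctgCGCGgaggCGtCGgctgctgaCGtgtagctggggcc
DNAJA1: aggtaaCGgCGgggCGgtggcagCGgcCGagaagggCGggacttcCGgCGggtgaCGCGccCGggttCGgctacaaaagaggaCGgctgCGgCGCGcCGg
DNAJC5: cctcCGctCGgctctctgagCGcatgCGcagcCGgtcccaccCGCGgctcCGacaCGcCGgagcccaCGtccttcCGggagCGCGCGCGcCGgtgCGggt
DNAJB13: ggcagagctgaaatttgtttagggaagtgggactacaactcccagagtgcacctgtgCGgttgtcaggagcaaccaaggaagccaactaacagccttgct
DNAJC12: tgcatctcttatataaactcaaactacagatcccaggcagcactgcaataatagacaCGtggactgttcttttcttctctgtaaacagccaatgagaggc

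A total of 36 members, or 85.7% of 42, were bound, where bound means that a peak overlapped the region within 1 kb of any transcription start site (TSS) of the gene in all 3 replicates. Across all protein-coding genes the share was 60.2%. By class, 3 of 4 DNAJA, 9 of 12 DNAJB and 24 of 26 DNAJC genes were bound. Replicate A had a promoter peak at 38 members, B1 at 36 and B2 at 37. A peak in at least 1 replicate was found at 38 of 42 members, against 63% of protein-coding genes. No test was run on the difference between the members and all genes.

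The 6 members that were not bound fell into those with no promoter peak and those with weak peaks in part of the replicates. DNAJB7, DNAJB8, DNAJB13 and DNAJC12 had a promoter peak in 0 of 3 replicates. DNAJB8 is known from testis, DNAJB13 is a protein of the sperm and ciliary axoneme, and DNAJC12 assists the aromatic amino acid hydroxylases. The nearest peak to any TSS of DNAJB7 was 4619 bp away in A, 4601 bp in B1 and 4677 bp in B2. It was over 20 kb away in every replicate for DNAJB8, with 20093 bp as the smallest distance, at least 17074 bp for DNAJB13 and at least 11112 bp for DNAJC12. DNAJA4, a cytosolic member of the A class, had a peak of fold enrichment 5.07 in A and 3.99 in B2, and its nearest peak in B1 was 20017 bp off. The summits of these 2 peaks held 13 fragments (95% exact Poisson interval 6.92 to 22.2) and 12 fragments (6.2 to 21). DNAJC22 had a single peak, in A, of fold enrichment 6.25 and 22 fragments (13.8 to 33.3). The weakest peak of the whole list had 8, 8 and 10 fragments in A, B1 and B2, and the lowest bound member had 45, 26 and 28, so the peaks of DNAJA4 and DNAJC22 lay between them. The intervals cover counting error only, and the lists hold only regions that the caller passed, so a missing peak does not show that PHF8 is absent.

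The ratio of observed to expected CpGs around the main transcript start separated the members without any promoter peak from the others. A promoter was called CpG-island-like where the 250 bases to each side of a TSS held at least 50% G and C and no fewer than 0.6 times the CpGs expected from that content (the CpG ratio). Such a promoter was found at 38 of 42 members, against 72.4% of protein-coding genes. Of these 38, 36 were bound, against 79.5% of protein-coding genes with such a promoter, and DNAJA4 and DNAJC22 were the exceptions. None of the other 4 (DNAJB7, DNAJB8, DNAJB13 and DNAJC12) was bound, against 9.59% of protein-coding genes without such a promoter. Around the main transcript start, the 36 bound members had a median CpG ratio of 0.84, from 0.547 to 1.15, and a median GC content of 66.9%. The CpG ratio was 0.0856 at DNAJB7, 0.285 at DNAJB8, 0.249 at DNAJB13 and 0.177 at DNAJC12, below every bound member. GC content and the number of CpGs did not separate them, since DNAJB8 had 54.5% and 10 CpGs there and the bound DNAJB4 39.9% and 10. DNAJA4 stood at 1.01 and DNAJC22 at 0.71, both within the range of the bound members. DNAJB4 (0.547) and DNAJC4 (0.577) were bound with a main start below the ratio of 0.6, and each had a CpG-island-like TSS elsewhere in the gene.

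**Figure D1:**
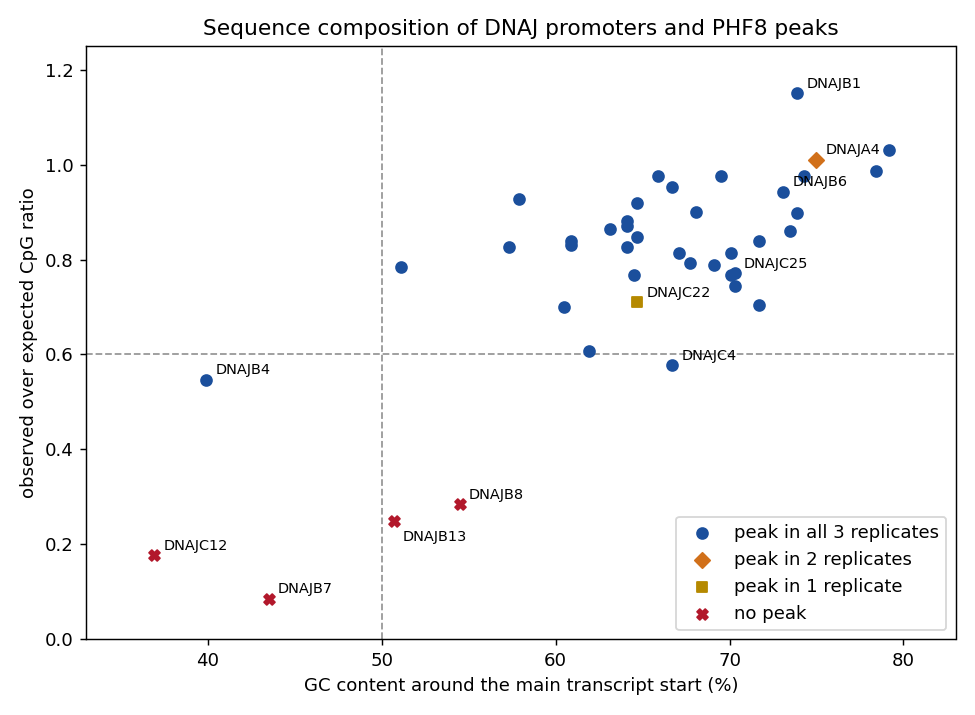
GC content (x axis, percent) and CpG ratio (y axis) in the 250 bases to each side of the main transcript start of the 42 members, by the number of replicates with a promoter peak. The 4 members with no peak sit at ratios of 0.0856 to 0.285, under the dashed line at 0.6, while DNAJA4 and DNAJC22 sit among the bound members.

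The strength of each bound promoter was read from its strongest promoter peak. Fold enrichment is the ratio of ChIP fragments at the summit to those expected from the local background, with 1 added to each, and it was put as a percentile among the 12139 bound protein-coding genes of the same replicate, since the scale differs between replicates. The members' median fold enrichment was 37.2, 21.7 and 22.0 in A, B1 and B2, beside 33.4, 19.4 and 18.4 over all bound protein-coding genes. Their median percentile was 59.6, 59.6 and 65.6 in A, B1 and B2 (61.6 ± 3.46, SD, n = 3). A mean percentile of at least 75 was seen at 11 of 36 members, against 23.1% of bound protein-coding genes, and one under 25 at 2 members (DNAJB6 and DNAJC5), against 23.2%. A peak above a fold enrichment of 10 in all 3 replicates was found at 34 members, against 49.6% of protein-coding genes, and above 20 at 20 members, against 23.8%.

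**Figure D2:**
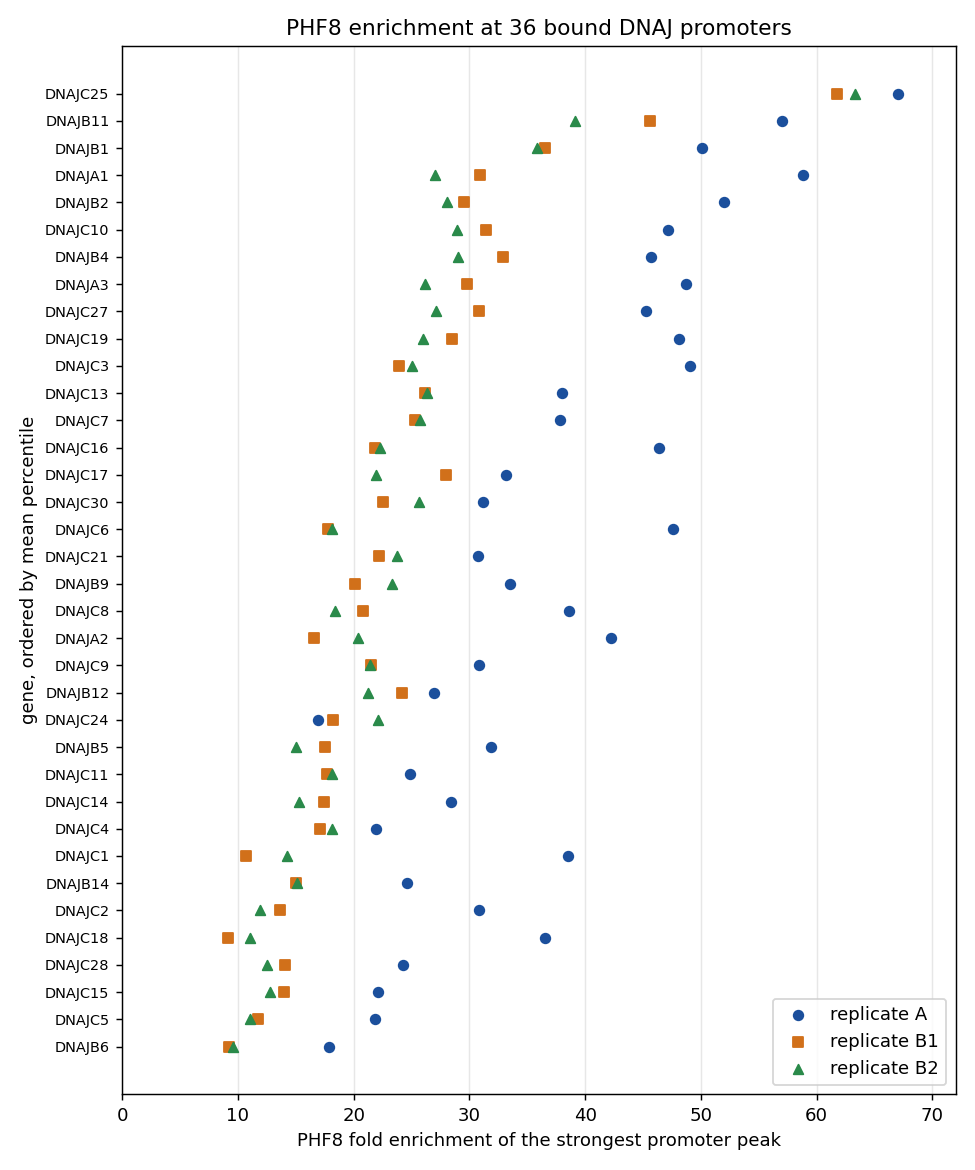
Fold enrichment (x axis, linear) of the strongest promoter peak of the 36 bound members (y axis, ordered by mean percentile), with 1 point per replicate. DNAJC25 lies between 61.8 and 67.0 in the 3 replicates, and DNAJB6 between 9.21 and 17.9. For most members replicate A lies to the right of B1 and B2.

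DNAJC25 stood at the top of the members in all 3 replicates. Its peak, at chr9:114393091-114394268 in A, had a fold enrichment of 67.0, 61.8 and 63.3 in A, B1 and B2, with 244, 212 and 227 fragments at the summit. The 3 replicates were close together, and the mean percentile was 99.7 ± 0.442 (SD, n = 3). By fold enrichment this peak ranked 74 of 21506 peaks in A, 2 of 20882 in B1 and 1 of 20120 in B2. By fragments it ranked 1, 2 and 1. The summit lay 125 to 140 bp downstream of the TSS, in a coding exon in every replicate. The promoter is also that of the readthrough gene DNAJC25-GNG10, and the peak covers the promoter window of the pseudogene LRRC37A5P too. The peak cannot be given to one of them.

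The members were then taken by place of action, and each count of bound members stands beside the 60.2% of all protein-coding genes and the 79.5% of those with a CpG-island-like promoter given above. Co-chaperones of the cytosol and nucleus were bound at 8 of 9 genes, with a median percentile of 78.4 ± 2.76 (SD, n = 3). DNAJA1, which works with the constitutive HSP70 proteins, had a fold enrichment of 58.8, 30.9 and 27.0 in A, B1 and B2, with 150, 97 and 88 fragments. Its mean percentile was 88.9 ± 6.58, and its peak also covers the start of APTX on the other strand. DNAJA2, its close relative, gave 42.2, 16.6 and 20.4 with 130, 86 and 92 fragments. The percentile of DNAJA2 was 71.8 in A and 38.8 in B1 by fold enrichment but 77.1 and 74.9 by fragments, with 2.11 and 4.25 fragments expected. These expected values belong to different positions, since the summit lay 124 bp downstream of the nearest TSS in A and 199 bp upstream in B1. DNAJB1, the heat-inducible member, gave 50.1, 36.5 and 35.8 with 129, 106 and 108 fragments (mean percentile 93.0 ± 5.62), with the peak of highest fold enrichment at different starts between replicates. DNAJB2, with ubiquitin-interacting motifs, gave 52.0, 29.5 and 28.1 with 137, 86 and 85 fragments (86.5 ± 2.27). These 4 genes and DNAJA4 show a wide range within the cytosolic group, from a promoter near the top to one without a peak in B1.

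The remaining cytosolic members ran from high to the lowest value of the family. DNAJB4 had a mean percentile of 86.0 and DNAJB5 one of 41.6, and both are close relatives of DNAJB1. The value of DNAJB4 comes from a peak at an upstream start shared with FUBP1 and GIPC2. Scored at main starts only, DNAJB4 had percentiles of 7.01, 9.75 and 6.73 in A, B1 and B2, below DNAJB6 with 14.7, 11.4 and 13.6. DNAJC7, which carries tetratricopeptide repeats, stood at 71.1. DNAJB6, a suppressor of protein aggregation, was lowest of all bound members by mean percentile, with a fold enrichment of 17.9, 9.21 and 9.53 in A, B1 and B2. Its summits held 45, 26 and 28 fragments, and its mean percentile was 13.3 ± 1.7 (SD, n = 3). DNAJB6 thus kept nearly the same low rank in each replicate.

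All 10 members listed under the ER were bound, with a median percentile of 68.1 ± 3.76 (SD, n = 3). In the ER, J-domain proteins work with the HSP70 protein BiP, encoded by HSPA5, in folding and in the removal of misfolded proteins. DNAJB11, a soluble ER partner of BiP, had a fold enrichment of 57.0, 45.6 and 39.1 in A, B1 and B2 with 175, 161 and 143 fragments (mean percentile 97.4 ± 2.65). DNAJC10, a disulfide reductase, gave 47.2, 31.4 and 28.9 with 141, 91 and 87 fragments (86.0 ± 3.78). DNAJC3, an inhibitor of eIF2-alpha kinases as well as a BiP partner, gave 49.1, 23.9 and 25 with 125, 69 and 75 fragments (76.5 ± 8.43). DNAJB9, which brings BiP to the stress sensor IRE1, gave 33.5, 20.1 and 23.3 with 85, 58 and 70 fragments (58.0 ± 10.8).

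The other members listed under the ER were DNAJC25, described above, DNAJC16 at a mean percentile of 69.1, DNAJB12 at 55.0, DNAJC1 at 37, DNAJB14 at 32.2 and DNAJC18 at 29.3. DNAJB12 and DNAJB14 are related membrane proteins of the ER, and DNAJC1 is a membrane protein with its J domain in the lumen. DNAJC18 had a fold enrichment of 36.5, 9.13 and 11.0 in A, B1 and B2, with 101, 47 and 54 fragments. Replicate A thus stood apart from B1 and B2 at this promoter, by more than for most members.

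All 7 mitochondrial members were bound too, with a median percentile of 40.6 ± 10.6 (SD, n = 3). DNAJA3, the mitochondrial A-class member, had a fold enrichment of 48.7, 29.8 and 26.2 with 124, 105 and 95 fragments (mean percentile 83.6 ± 2.82). DNAJC19, a subunit of the import motor at the inner membrane, gave 48.1, 28.5 and 26 with 137, 95 and 90 fragments (82.0 ± 2.05). DNAJC30, linked to respiratory complex I, gave 31.2, 22.5 and 25.6 with 79, 65 and 77 fragments (62.0 ± 17.0). DNAJC15, a relative of DNAJC19, gave 22.1, 14.0 and 12.8 with 58, 40 and 38 fragments (25.5 ± 2.95). DNAJA3 and DNAJC19 were higher than DNAJC15 in each of the 3 replicates. DNAJC28 gave 24.3, 14.1 and 12.5 with 72, 49 and 37 fragments (26.8 ± 2.21). DNAJC11, of the cristae-organizing machinery, stood at 40.6 and DNAJC4 at 37.4. No test was run of the difference between the mitochondrial and the other groups.

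The 6 members acting at the ribosome, the spliceosome, histones or diphthamide synthesis were all bound, with a median percentile of 55.0 ± 10.5 (SD, n = 3). DNAJC2, which sits on the ribosome, had a fold enrichment of 30.8, 13.6 and 11.9 in A, B1 and B2 with 78, 41 and 37 fragments. DNAJC8, found with the spliceosome, gave 38.6, 20.8 and 18.4 with 98, 60 and 55 fragments. DNAJC9, a histone co-chaperone, gave 30.8, 21.5 and 21.4 with 78, 62 and 64 fragments. Mean percentiles were 30.9 for DNAJC2, 56.6 for DNAJC8 and 55.1 for DNAJC9. DNAJC17, of the spliceosome, stood at 65.5, DNAJC21, needed for ribosome maturation, at 58.8, and DNAJC24, of the diphthamide pathway, at 41.7.

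Of the members of vesicles and endosomes, 4 of 4 were bound (median percentile 65.2 ± 4.84, SD, n = 3). DNAJC5, the cysteine string protein of secretory vesicles, gave a fold enrichment of 21.8, 11.7 and 11.0 with 62, 34 and 33 fragments (mean percentile 19.9 ± 1.52). DNAJC6, or auxilin, which uncoats clathrin vesicles, gave 47.6, 17.8 and 18.1 (58.9 ± 20.9). The endosomal DNAJC13 stood at 73.0 and DNAJC27, a Rab-like protein with a J domain, at 83.1. Of the 3 members listed as restricted to germ cells or cilia (DNAJB7, DNAJB8 and DNAJB13), 0 were bound. Of 3 members listed under none of these places (DNAJC12, DNAJC14 and DNAJC22), 1 was bound, DNAJC14 at a mean percentile of 38.9. Apart from DNAJA4, all unbound members were in these last groups, so the counts of the places above leave most unbound members out.

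The order of the members depended in part on the background at the peak. The fragments at a summit could be recovered from the deposited fold enrichment and p-value, and with them the fragments expected there. Between A and B1 the Spearman correlation over the 36 bound members was 0.721 for fold enrichment and 0.913 for fragments. Between A and B2 it was 0.739 and 0.892, and between B1 and B2 0.963 and 0.97. These describe members of the same 3 libraries. The percentile of fold enrichment had an SD over 20 at 4 of 36 members (DNAJC1, DNAJC6, DNAJC18 and DNAJC24), a share of 5.82% among bound protein-coding genes. With the percentile of fragments it exceeded 20 at 0 members, against 0.651%.

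DNAJC24 shows how the measures differ. In A its peak had 129 fragments, the most of the 3 replicates, but its fold enrichment of 16.9 was the lowest, with 6.7 fragments expected there. In B1 it had 79 fragments with 3.4 expected (18.2-fold), and in B2 80 with 2.67 expected (22.1-fold). DNAJC6 had 185, 138 and 146 fragments in A, B1 and B2, with 2.9, 6.81 and 7.11 expected. Its summit lay 115 bp downstream of the nearest TSS in A, but 216 and 245 bp upstream in B1 and B2. The expected values of DNAJC6 therefore belong to different positions. The mean percentile of DNAJC6 was 98.6 by fragments and 58.9 by fold enrichment. DNAJC1 and DNAJC18 each had 4.25 expected fragments in B1, against 1.7 and 1.79 in A. The most frequent expected value was 1.567, 1.932 and 2.044 fragments in A, B1 and B2. What raised the background at these promoters was not tested.

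**Figure D3:**
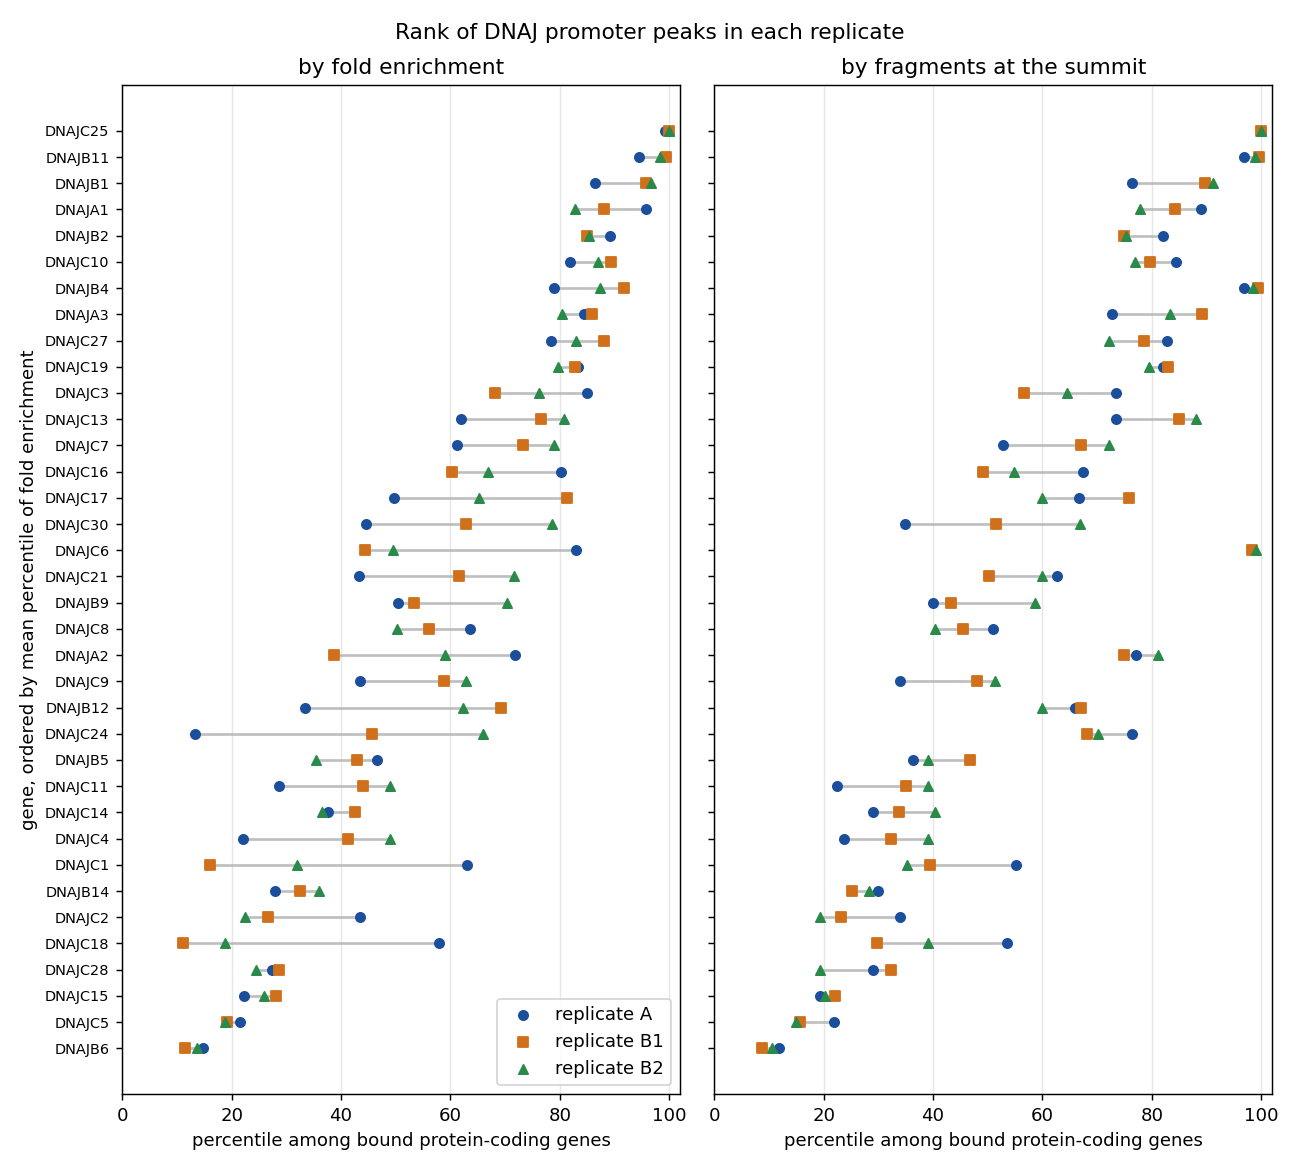
Percentile among bound protein-coding genes (x axis) of the strongest promoter peak of the 36 bound members (y axis), ranked by fold enrichment on the left and by fragments at the summit on the right, with 1 point per replicate and a line from the lowest to the highest. DNAJC6 and DNAJC24 have long lines on the left and short ones on the right, with DNAJC6 at a mean percentile of 98.6 by fragments.

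Several members had more than 1 promoter peak. In all 3 replicates 2 or more promoter peaks were found at 10 of 36 bound members (DNAJB1, DNAJB4, DNAJB5, DNAJB11, DNAJC3, DNAJC4, DNAJC6, DNAJC7, DNAJC14 and DNAJC17), against 31.9% of bound protein-coding genes. At 7 members (DNAJB1, DNAJB6, DNAJB11, DNAJC3, DNAJC4, DNAJC14 and DNAJC17) the peaks of highest fold enrichment of the replicates did not all overlap each other. The same share over all bound protein-coding genes was not computed, so this count describes these members only and marks no trait of the family.

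DNAJB1 was bound both at its main start and at an upstream start. At the main start, with a peak at chr19:14628395-14629319 in A, the fold enrichment was 50.1, 33.5 and 28.9 in A, B1 and B2. At the upstream start, with a peak at chr19:14640300-14640927 in A, it was 39.1, 36.5 and 35.8. By fold enrichment the main start was the stronger in A and the weaker in B1 and B2. By fragments, with 129, 100 and 90 at the main start and 143, 106 and 108 at the upstream one, the upstream start was the higher in each replicate. Both peaks also lie at starts of TECR, a gene of the other strand. At DNAJB11 the main start had a fold enrichment of 57.0, 24.3 and 25.7 with 175, 106 and 116 fragments. A start further upstream had 40.7, 45.6 and 39.1 with 176, 161 and 143 fragments, so in A the starts differed by fold enrichment and hardly by fragments. Both peaks also lie at starts of TBCCD1.

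DNAJB4 had its strong peak at an upstream start rather than at its main one. At the upstream start, which it shares with FUBP1 and GIPC2, it had a fold enrichment of 45.7, 32.9 and 29.0. At the main start it had 12.8, 8.67 and 7.18. DNAJC4 had 18.2, 17.1 and 18.1 at its main start, and in A the peak of highest fold enrichment, 21.9, lay 1444 bp from its nearest TSS and also at VEGFB. By fragments these peaks of A hardly differed, with 66 at the main start and 65 at the other. DNAJC7 had 22.6, 19.0 and 20.9 at its main start, and its strongest peak, of 37.8, 25.3 and 25.7, lay 1101 to 1147 bp from its nearest TSS and is shared with NKIRAS2. DNAJC6 was the only bound member without a peak at its main start, and its peaks lay at upstream starts.

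Sharing of a peak was common among the members, as it was among all bound protein-coding genes. At 20 of 36 bound members the strongest peak covered the promoter window of another gene in every replicate, against 49.6% of bound protein-coding genes. At 13 of them another protein-coding gene was among those, such as PSMC2 at DNAJC2, CASP9 at DNAJC16, BUD23 at DNAJC30, DCDC1 at DNAJC24 and PNPLA8 and THAP5 at DNAJB9. For sharing with a protein-coding gene the share over all bound protein-coding genes was not computed. Within 2 kb, a neighbour was transcribed from a start on the other strand at 22 of 36, beside 54.3% of bound protein-coding genes. At these promoters the signal of the neighbours cannot be told apart.

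Summits mostly lay close to a start. At the 14 bound members without such a neighbour, the summit was downstream of the nearest TSS at 8 in A (57.1%), 9 in B1 (64.3%) and 8 in B2 (57.1%). The share was 59.5% ± 4.16 (SD, n = 3), beside 73.3% ± 0.4 over all bound protein-coding genes without one. With the 5′ end of the gene as its only TSS, the share was 87.9% of 11 members beside 84.3%, so the order of members and all genes depends on which starts are counted. Over all 36 bound members, 20, 19 and 17 summits of A, B1 and B2 lay between 50 and 170 bp downstream, beside 51.2%, 49.5% and 50.1% of bound protein-coding genes. The summits of the strongest peak of DNAJB9 lay 307 to 323 bp upstream in every replicate, and those of DNAJC28 216 to 244 bp upstream. DNAJB9 also had a weaker peak downstream, with its summit at 157 bp (28.4-fold) in A and 162 bp (18.1-fold) in B2. In B1 a single DNAJB9 peak spanned the start.

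**Figure D4:**
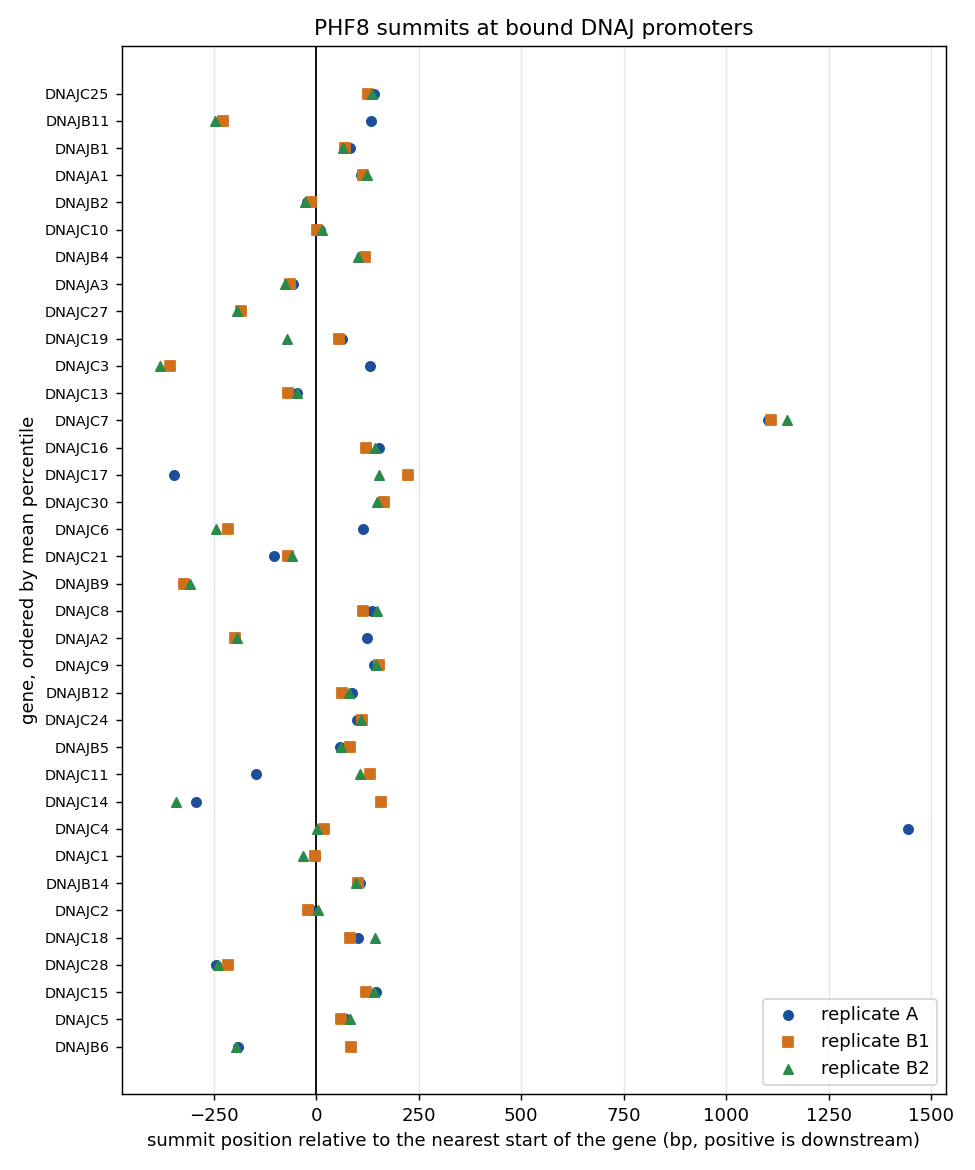
Position of the summit of the strongest promoter peak relative to the nearest TSS of the gene (x axis, bp, positive downstream) for the 36 bound members (y axis, ordered by mean percentile), with 1 point per replicate. The summits of DNAJC7 (1101 to 1147 bp) and of DNAJC4 in A (1444 bp) lie furthest downstream, and members such as DNAJB11, DNAJC3 and DNAJC17 have summits on both sides of a TSS.

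Exact matches to known stress elements were few in these promoters. Both strands were searched from 250 bases before to 50 bases after 1 TSS per gene, which for the matches shown was the main transcript start. The heat shock element was searched as 3 alternating units of GAA and TTC with 2 free bases between units. It was found at DNAJB6 and DNAJA1, 2 of 42 members, and at 0.357% of protein-coding genes. The unfolded protein response element TGACGTGG was found at DNAJC10, as its reverse complement, and at 0.818% of genes. The cAMP response element TGACGTCA was found at DNAJC27 and at 2.67% of genes. The ER stress response element, which joins a CCAAT box to CCACG over a gap of 9 bases, was found at 0 members and 0.104% of genes. A match is a description of letters only. Sites that differ by a letter or lie at other starts were not counted. Lack of a match therefore does not show that an element is absent. The matches are shown with 8 bases on each side, on the strand of the gene, and capitals mark the fixed letters of the element. They lie at chr7:157129559-157129587 (plus strand, DNAJB6, element starting 131 bases before the TSS), chr9:33025266-33025294 (plus strand, DNAJA1, just after the TSS), chr2:183580851-183580874 (plus strand, DNAJC10, 125 before) and chr2:25194986-25195009 (minus strand, DNAJC27, 177 before).
DNAJB6: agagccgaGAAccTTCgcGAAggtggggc
DNAJA1: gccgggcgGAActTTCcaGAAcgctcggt
DNAJC10: gcacaccgCCACGTCAacctaaac
DNAJC27: cctgcagaTGACGTCAgcagcccc
DNAJB6 and DNAJA1 stood at opposite ends of the ranking, with mean percentiles of 13.3 and 88.9.

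The partners of the DNAJ proteins in the chaperone cycle were scored in the same way. Of 40 genes of the HSP70 system, 38 were bound, beside 60.2% of all protein-coding genes and 79.5% of those with a CpG-island-like promoter. Among HSP70 and HSP110 proteins it was 15 of 16 (median of the mean percentiles 40.7), among nucleotide exchange factors 10 of 10 (75) and among J-domain proteins with another symbol 4 of 4 (62.8). HSP90 proteins and co-chaperones gave 7 of 7 (62.9) and heat shock factors 2 of 3 (52.4). HSPA12B had a promoter peak in 0 replicates although its promoter is CpG-island-like. HSF4 had one of 5.32-fold in A and 4.76-fold in B2 and none in B1.

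Strength ranged widely among these partners too, and the values in brackets are fold enrichments in A, B1 and B2. HSPA12A was highest among the HSP70 genes (51.8, 29.7 and 31.2 in A, B1 and B2, mean percentile 88.5), and the heat-inducible HSPA6 lowest (5.84, 5.8 and 6.24, mean percentile 2.61). HSPA5, the ER partner of DNAJB11, DNAJB9, DNAJC3 and DNAJC10, had 27.1, 21.8 and 24.6 (mean percentile 56.2). SIL1, the exchange factor of BiP, led its group at a mean percentile of 96.5 (58.1, 36.3 and 39.6), and HSPBP1 was lowest at 20.2 (19.3, 11.9 and 12.2). GAK, the relative of DNAJC6, stood at 83 (46, 29 and 28.3). TRAP1, the mitochondrial HSP90, stood at 96.2 (60.0, 35.5 and 36.5) and HSP90B1, the ER one, at 50.8 (35.9, 18.6 and 18). HSF1 stood at 83.2 (57.3, 35.8 and 20.6) and HSF2 at 21.6 (23, 11.9 and 11.5). HSPA1A and HSPA1B are near-identical copies, so reads from one can be placed on the other and their values are uncertain, and HSPA1A and HSPA1L share their peak.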

How the data were processed

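PHF8 ChIP-seq peak lists of 3 replicates were analysed. The authors aligned reads to hg19 (GRCh37) with Bowtie2 at default settings and called narrow peaks with MACS in each replicate against input, without pooling. Their processing notes also name bcl2fastq and Picard, with no role. Versions, read totals and duplicate handling are not given in the sources used here. The deposited lists hold, per peak, a fold enrichment (a linear ratio over local background), −log10 of the p-value and −log10 of the q-value, a score (10 times the latter as a whole number, not used further) and the summit offset.

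The members and lists were chosen with earlier results of these data known. A gene's starts were those of all its transcripts in GENCODE release 44, leaving out mitochondrial genes and Y copies of pseudoautosomal genes. The strongest promoter peak was the one of highest fold enrichment, and the main transcript the MANE Select one. Fragments were recovered as the whole number that gives both the deposited fold enrichment and p-value under a Poisson law, within a tolerance of 0.001, for 100% of peaks. Both steps were tested on simulated data. With 1 group of ChIP samples, no test was run. Every member is named. Values in each replicate are given for the 5 highest and 5 lowest bound members, those with peaks in part of the replicates and 16 members of known roles, and in each partner list for the highest, the lowest and the unbound. The lowest of 1 partner list is not reported here. A few others, named for their peak positions or HSPA5, were chosen after their values were seen. Python 3.11.15, numpy 2.4.6, pandas 2.3.3, scipy 1.17.1, pysam 0.24.0 and matplotlib 3.10.9 were used.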

Additional observations from a re-analysis of the deposited data

How the results depend on the processing

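Of 64 values recomputed under another setting, 58 stayed within 1.5 times (counts) or 1 SD between replicates (other values). A count near its ceiling, such as 36 of 42, cannot rise by 1.5 times, so the limit can flag only falls there. It is also wide, since the CpG-island-like members passed it with 30 at 1 TSS per gene (in this section its 5′ end) against 38. The number of bound members was 36 with q-values under 0.001 and with peaks more than 4-fold enriched. These cutoffs could not remove a bound member, since the lowest values were a fold enrichment of 9.13 and a −log10 q-value of 18.2. Windows of 500 bp and 2 kb also gave 36, beside 59.8% and 60.9% of protein-coding genes. Starts of protein-coding transcripts only gave 36 beside 58.7%, and 1 TSS per gene gave 32 (76.2%) beside 54.0%. Summits inside the window gave 36 and a peak in at least 2 replicates 37, with no share of all genes given. Settings added after seeing the data kept 34 bound members above a fold enrichment of 10 and 20 above 20, where the partner genes fell to 35 and 18 of 40. The shares of protein-coding genes were then 49.6% and 23.8%. The downstream share of summits moved to 73.8% with starts of protein-coding transcripts only and to 87.9% with 1 TSS per gene. Over all bound protein-coding genes it was 75.7% and 84.3% under these settings. The median percentile moved to 56.6 at the main transcript start, another added setting, which scores a different peak at some genes. Members sharing their peak numbered 13 when only protein-coding neighbours counted. What else lay behind these shifts was not tested. Leaving out 1 replicate at a time gave 36 to 37 bound members, a median percentile of 60.0 to 62.7, a median fold enrichment of 21.8 to 29.4, a downstream share of 57.1% to 60.7% and 38 to 39 bound partner genes. The share of all protein-coding genes that was bound was then 60.3% to 60.8%. No paired analysis was possible because there is 1 group of ChIP samples and no test. Peak lists without read totals limit what can be said of genes with no peak.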

Other observations

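Genes whose symbol adds letters to a DNAJ name were outside the rule. DNAJC5B and DNAJC5G, relatives of DNAJC5, had a promoter peak in 0 of 3 replicates each, so with them 36 of 44 genes were bound. The readthrough gene DNAJC25-GNG10 had one in 3 replicates, the peak of DNAJC25.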
